A study of Mus musculus with 24 samples.

Results

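Collagens are the structural proteins of the extracellular matrix, and the genes studied here are those of the mouse whose protein-coding symbols read Col, a number, a and a number. By this rule 44 of the 55401 genes in the mRNA count values encode a collagen chain. They were sorted by textbook assembly into 11 fibrillar chains, 8 basement membrane chains and 25 other chains. The last class holds 6 beaded filament chains of type VI, 9 FACIT chains that sit on the surface of fibrils, 3 short-chain network chains, 1 anchoring fibril chain, 4 transmembrane chains and 2 remaining chains. Of the 44 genes, 43 had at least 1 count, and Col10a1, a chain of growth plate cartilage, had 0 counts in all 12 libraries.

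Collagen chains fold into triple helices in the endoplasmic reticulum, with help from prolyl and lysyl hydroxylases and a dedicated chaperone, and are secreted. Fibrillar collagens then lose their propeptides and pack into fibrils, which carry tension in the sheaths around muscle fibres and in the tendon. Type IV collagen forms the sheet-like network of the basement membrane around each muscle fibre and capillary, and type VI collagen links that membrane to the fibrils. Skeletal muscle makes most of this collagen in its connective tissue cells, and synthesis is known to be higher in growing animals.

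Gastrocnemius muscle was taken from male C57BL6 mice 24 h after sham treatment or a scald burn covering 25% of the body surface, with 3 mice in each of 4 groups. Young mice were bought at 4 weeks and burned at 5 weeks of age, and adult mice were bought at 10 weeks and burned at 11 weeks. Sham animals received the anaesthetic and the analgesic but neither a burn nor fluid resuscitation, so that the burn comparisons hold the resuscitation as well. All mice were wild type, and each gave 1 mRNA library and 1 small RNA library.

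The labelled tissue was clear in the data, since 8 muscle fibre markers summed to 94375 to 198120 normalized CPM, the count scaled to a common library total, in every library. The mRNA libraries held 4392605 to 5688512 counts each, of which 10064 to 46988 fell on collagens. Young burn replicate 2 stood apart. Its log2 CPM correlated with the other young burn libraries at r = 0.936 and 0.945, whereas the other pairs within a group had r from 0.975 to 0.983 across genes. A heat map of the study leaves 1 young burn animal out and shows replicates 1 and 3, and the values first given here are from the 11 libraries without replicate 2, so that young burn then has 2 mice, with all 12 libraries beside them. Levels are given as this normalized CPM, differences are log2 fold changes ± standard error from edgeR's quasi-likelihood test, and adjusted p values under 0.05 were taken as calls. The p-values measure the spread between mice. As this is bulk tissue, fewer cells of a type and less RNA per cell cannot be told apart.

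Collagens took a larger share of the muscle mRNA in the young mice than in the adult mice. In adult sham the 44 genes held 0.331%, 0.229% and 0.381% of all counts, and in adult burn 0.333%, 0.233% and 0.227%. The same share in young sham was 0.761%, 0.783% and 0.811%, and in young burn 0.781%, 0.817% and 1.00%. The 6 young libraries all lay above the 6 adult libraries, and the burn and sham ranges overlapped at both ages. Type I and type III chains, the bulk of fibrillar collagen in most soft tissues, carried 43.4% to 51.5% of collagen counts in adult muscle and 62.7% to 71.9% in young muscle. After filtering on low counts, 35 of the 44 genes could be tested in the 11 libraries and 34 in the 12. The 9 untested genes were Col4a6, Col6a4, Col6a5, Col9a2, Col9a3, Col19a1, Col10a1, Col17a1 and Col25a1, with 0 to 77 counts each over all libraries.

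Whether resting muscle differed in collagen expression with age was asked by comparing young sham with adult sham. Of the 35 collagens tested, 22 were higher in the young mice and 0 were lower, where 11.8% of all 12651 genes tested were called and 5.27% were called higher. The fibrillar class was called in 10 of 11, the basement membrane class in 4 of 7 and the other class in 8 of 17. The median log2 fold change was 1.28 for fibrillar, 0.59 for basement membrane and 0.65 for other collagens, beside 0.00 for all genes. With all 12 libraries 16 of 34 collagens were called, 9 fibrillar, 3 basement membrane and 4 others, where 3.76% of genes were called and 1.92% were called higher. A collagen whose 3 young sham values all lay above the 3 adult sham values was found in 25 of 35 cases, and 15.7% of all genes tested had that order.

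**Figure D1:**
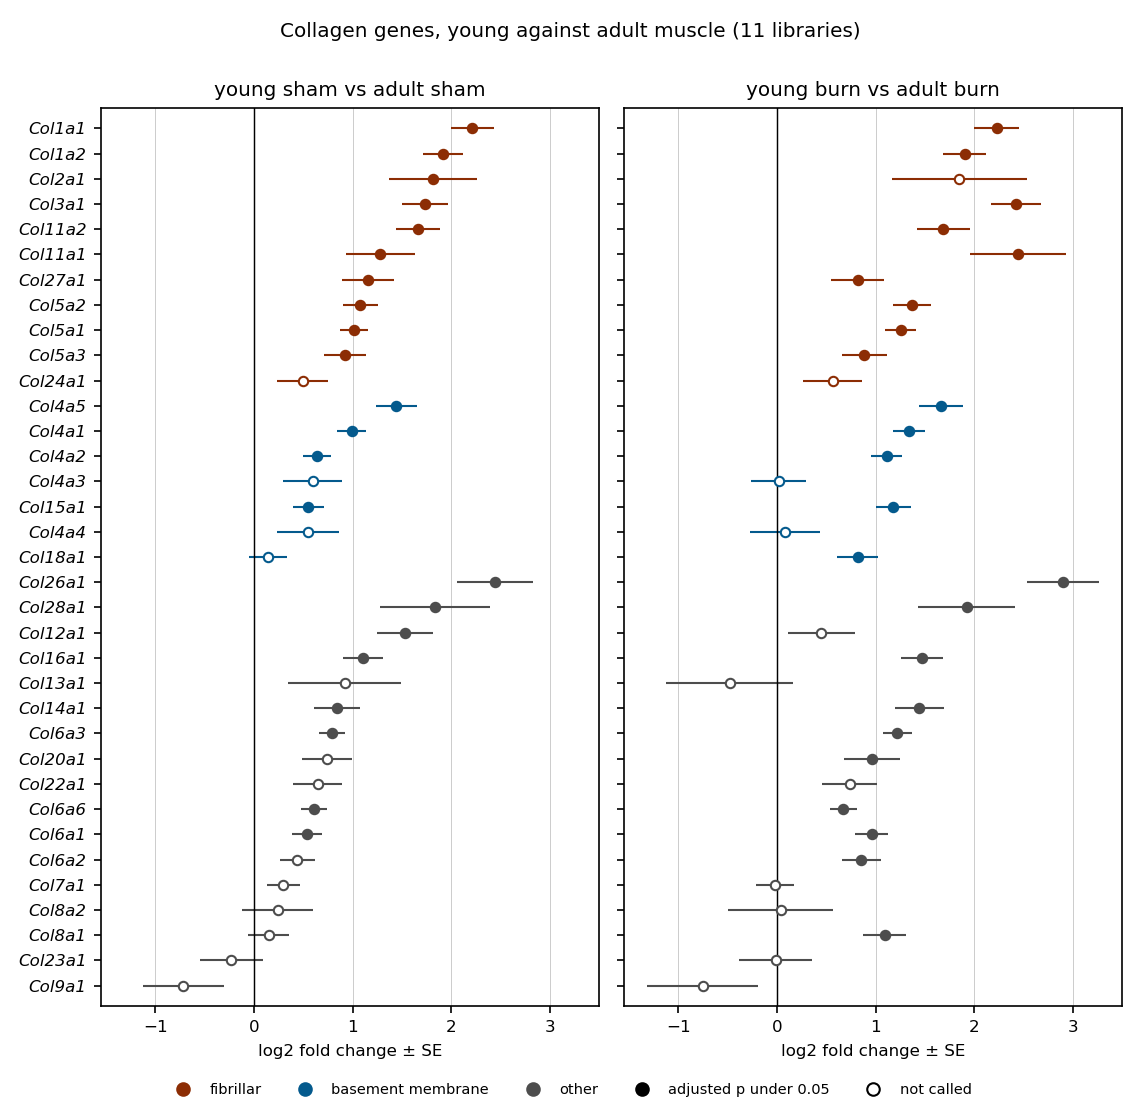
Log2 fold changes of the 35 tested collagens, ordered by class, with young sham against adult sham in one panel and young burn against adult burn in the other. The horizontal axis is log2 fold change, points are estimates from the 11 libraries, bars are standard errors and filled points passed an adjusted p of 0.05. Most points lie right of 0, and every filled point does.

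Col1a1 (ENSMUSG00000001506.10, GRCm38 chr11:94936224-94953042) encodes the alpha-1 chain of type I collagen, the main fibril of tendon, bone and skin. Its CPM was 393, 254 and 475 in adult sham and 1551, 1563 and 2115 in young sham. After burn it was 336, 233 and 237 in adults, and 1061, 889 and 1438 in the young mice. All 6 young libraries lay above all 6 adult libraries, and no young burn library reached the lowest young sham library. The log2 fold change of young sham against adult sham was 2.21 ± 0.22 (adjusted p = 5.04e-05). Its partner Col1a2 (ENSMUSG00000029661.16, chr6:4504814-4541544) encodes the alpha-2 chain of the same triple helix. Col1a2 had 642, 437 and 728 CPM in adult sham and 2013, 2088 and 2767 CPM in young sham, with no overlap, and a log2 fold change of 1.92 ± 0.20 (adjusted p = 7.7e-05).

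Col3a1 (ENSMUSG00000026043.18, chr1:45311538-45349706) encodes type III collagen, which forms thin fibrils in compliant and in healing tissue. It had 616, 401 and 758 CPM in adult sham, and 1941, 1803 and 2183 CPM in young sham. The young sham values again lay above every adult sham value, and the log2 fold change was 1.73 ± 0.23 (adjusted p = 0.000572). Of the exons of Col3a1, 141 bases (1.44%) are shared with the predicted gene Gm47302 on the same strand. Per kilobase of exon, Col3a1 and Col1a1 had mean levels of 134 CPM each over the 11 libraries, followed by Col1a2 at 98.2 CPM per kilobase. With the longest transcript as length the order was Col3a1, Col1a2 and Col1a1, at 237, 228 and 148 CPM per kilobase.

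Minor fibrillar chains, which set the diameter of type I fibrils or belong to cartilage, moved the same way at lower levels. Type V chains rose by 1.01 for Col5a1, 1.08 for Col5a2 and 0.92 for Col5a3 on the log2 scale in young sham against adult sham. Col11a2, a type XI chain, had 8.66, 4.29 and 10.4 CPM in adult sham and 25.7, 23.8 and 25.5 CPM in young sham. These groups did not overlap, and its log2 fold change was 1.66 ± 0.22 (adjusted p = 0.000502). Its partner Col11a1 had 6.39, 2.94 and 5.08 CPM in adult sham and 7.77, 12.7 and 15.1 CPM in young sham, a difference of 1.28 ± 0.35 (adjusted p = 0.0288, and 0.0832 with all 12 libraries). Col2a1, the main collagen of cartilage, had 1.44, 0.678 and 1.06 CPM in adult sham and 3.64, 4.64 and 3.16 CPM in young sham. That is a log2 fold change of 1.81 ± 0.45 (adjusted p = 0.0175) on counts of 3 to 23 per library. The fibrillar chain that did not pass was Col24a1, at 0.50 ± 0.26 (adjusted p = 0.229).

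**Figure D2:**
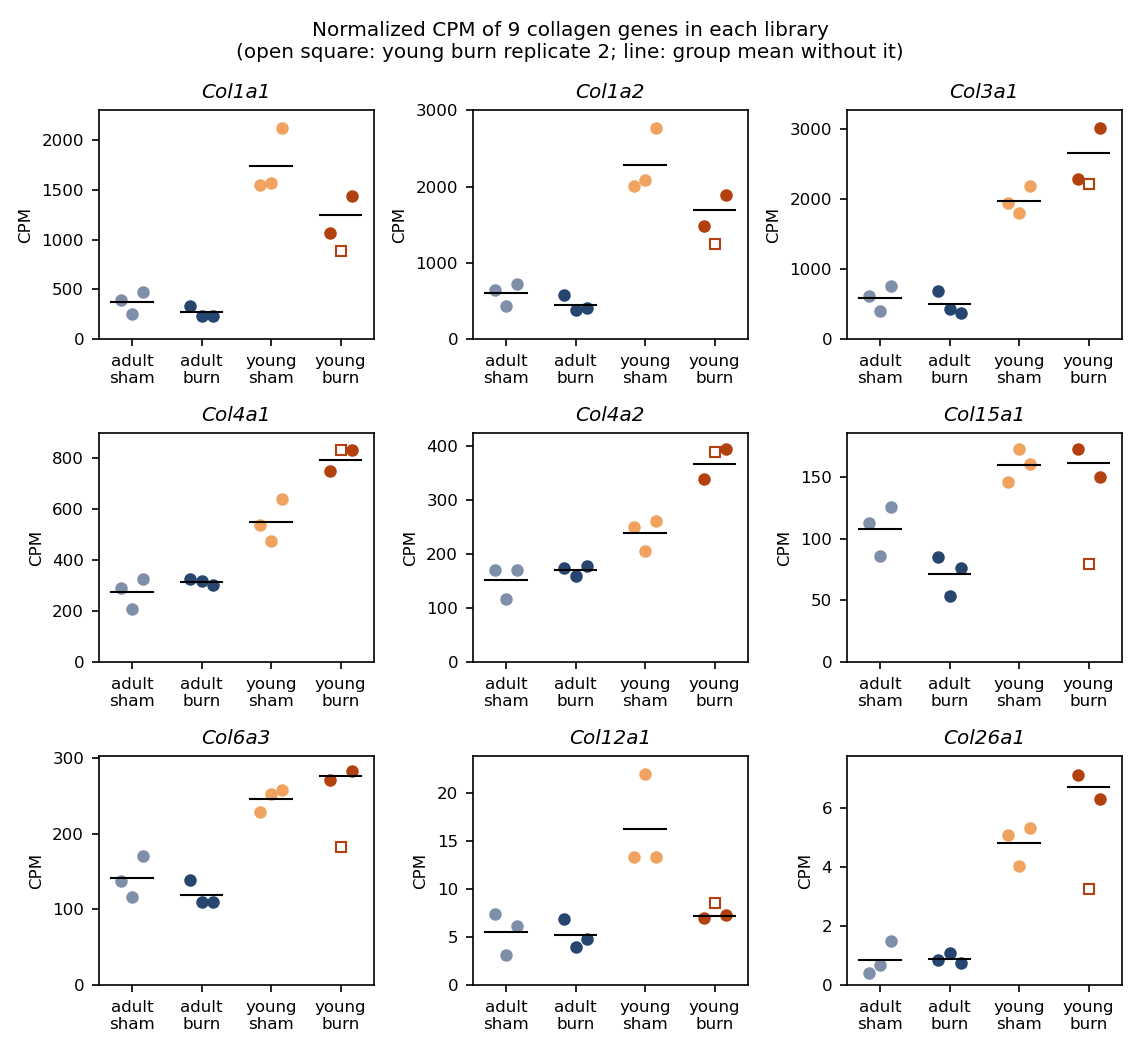
Normalized CPM of 9 collagens in each of the 12 mRNA libraries, by group. Circles are single mice, the open square is young burn replicate 2 and the line is the group mean without it. Type I and type III chains separate the ages completely, Col15a1 dips in adult burn, and Col12a1 in young burn lies near the adult levels.

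Among basement membrane chains, type IV collagen of the ubiquitous kind rose less than type I. Col4a1 (ENSMUSG00000031502.11, chr8:11198423-11312826) had 291, 208 and 328 CPM in adult sham and 539.8, 476 and 641 CPM in young sham. The groups did not overlap, and the log2 fold change was 0.99 ± 0.15 (adjusted p = 0.00107). Col4a2 (ENSMUSG00000031503.13, chr8:11312805-11449287), its partner chain, starts head to head with Col4a1, and their exons share 22 bases. It had 169.8, 117 and 171 CPM in adult sham and 250.0, 206 and 262 CPM in young sham, a difference of 0.64 ± 0.14 (adjusted p = 0.0103). Col4a5 on chromosome X, a chain of the tissue-restricted type IV networks, had 9.48, 7.23 and 13.3 CPM in adult sham and 31.3, 28.4 and 22.6 CPM in young sham. Its log2 fold change of 1.44 ± 0.21 (adjusted p = 0.000856) was the highest of the 7 basement membrane chains tested. Col4a3 at 0.59 (adjusted p = 0.212), Col4a4 at 0.55 (adjusted p = 0.271) and Col18a1 at 0.14 (adjusted p = 0.689) did not pass.

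Col15a1, a proteoglycan collagen that anchors basement membranes to fibrils in muscle and capillaries, had 113, 86.3 and 126 CPM in adult sham and 146, 172 and 161 CPM in young sham. The young sham values were all higher, but the call at 0.55 ± 0.16 (adjusted p = 0.038) did not hold with all 12 libraries (adjusted p = 0.222).

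Type VI collagen, whose chains are mutated in Bethlem and Ullrich muscle disease, was called for 3 of its 4 tested chains in young sham against adult sham. Col6a3 had 138, 116 and 171 CPM in adult sham and 229, 253 and 258 CPM in young sham, without overlap. It rose by 0.79 ± 0.13 on the log2 scale (adjusted p = 0.00227). Col6a1 had 188, 143 and 234 CPM in adult sham and 285, 267 and 274 CPM in young sham, a difference of 0.54 ± 0.15 (adjusted p = 0.033, and 0.117 with all 12 libraries). Col6a2, which joins both in the same filament, had 197, 143 and 256 CPM in adult sham and 248, 279.6 and 286 CPM in young sham, and these groups overlapped. Its log2 fold change of 0.44 ± 0.18 did not pass (adjusted p = 0.123). Col6a6 was called at 0.60 ± 0.13 (adjusted p = 0.00961, and 0.051 with all 12 libraries).

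FACIT collagens bind the surface of fibrils. Col12a1, a FACIT of tendon and of tissue under load, had 7.42, 3.16 and 6.13 CPM in adult sham and 13.3, 22.0 and 13.4 CPM in young sham, with a log2 fold change of 1.53 ± 0.29 (adjusted p = 0.00416). Col14a1, which caps interfibrillar surfaces, had 27.0, 15.8 and 28.1 CPM in adult sham and 44.2, 40.6 and 43.5 CPM in young sham, a difference of 0.84 ± 0.23 (adjusted p = 0.0303, and 0.109 with all 12 libraries). Col16a1 had 9.07, 6.78 and 7.61 CPM in adult sham and 14.3, 17.1 and 19.4 CPM in young sham. None of these 3 genes overlapped between the sham groups, and Col16a1 rose by 1.10 ± 0.20 (adjusted p = 0.00331). Col22a1, a collagen of the myotendinous junction, had 23.7, 18.1 and 23.7 CPM in adult sham and 42.7, 19.8 and 41.8 CPM in young sham, and its difference of 0.65 did not pass (adjusted p = 0.104). Of the 6 FACIT genes tested 3 were called, and Col9a1 was one of the 2 collagens with a value below 0, at -0.72 (adjusted p = 0.275).

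The largest log2 fold change of the family between the sham groups belonged to Col26a1, a little-studied secreted chain, at 2.44 ± 0.39 (adjusted p = 0.00147). Its CPM was 0.412, 0.678 and 1.48 in adult sham, and 5.10, 4.03 and 5.35 in young sham. The groups were well apart although the level was low. Col28a1, a chain of peripheral nerve, had 1.03, 1.13 and 0.634 CPM in adult sham and 5.58, 1.21 and 3.64 CPM in young sham, and its 1.83 ± 0.56 was called by a small margin (adjusted p = 0.0454, and 0.0879 with all 12 libraries). Neither the short-chain genes Col8a1 and Col8a2, nor the anchoring fibril gene Col7a1, nor the transmembrane genes Col13a1 and Col23a1 passed the test.

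When each of the 11 libraries was left out in turn, 14 of the 22 calls between the sham groups were made in every fit. The other 8 were Col2a1, Col5a3, Col11a1, Col27a1, Col15a1, Col6a1, Col14a1 and Col28a1. Each was lost without at least 1 sham library, most often adult sham replicate 2, and their largest adjusted p in these fits ran from 0.0513 for Col5a3 to 0.152 for Col28a1. The calls of Col1a1, Col1a2, Col3a1, Col4a1, Col4a2, Col4a5, Col6a3 and Col26a1 were among the 14.

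Between the burned groups, young burn was compared with adult burn. Here 24 of 35 collagens were higher in young mice and 0 were lower, where 20.7% of genes tested were called and 11.2% were called higher. By class, 9 of 11 fibrillar, 5 of 7 basement membrane and 10 of 17 other collagens were called, with median log2 fold changes of 1.68, 1.11 and 0.85 beside 0.01 for all genes. Over all 12 libraries 18 of 34 were called, 7 fibrillar, 4 basement membrane and 7 others, where 10.8% of genes were called and 5.98% were called higher. Class medians were then 1.43, 0.90 and 0.69. Without young burn replicate 2, 28 of the 35 genes had every young burn value above every adult burn value, which 26.6% of all genes tested had. With that library the order held for 23 of the 35, and for 15.5% of all genes tested.

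Col3a1 had 694, 425 and 373 CPM in adult burn and 2292, 2221 and 3007 CPM in young burn. All young burn values lay above all adult burn values, and the log2 fold change was 2.42 ± 0.25 (adjusted p = 5.61e-05). Col1a1 differed by 2.22 ± 0.23 (adjusted p = 5.54e-05) between the burned groups. Col1a2 had 575, 380.1 and 409 CPM in adult burn and 1490.2, 1252 and 1891 CPM in young burn, with a difference of 1.90 ± 0.21 (adjusted p = 0.000103). The largest fibrillar difference was that of the low-level Col11a1, at 2.44 (adjusted p = 0.00355), and 2.19 with all 12 libraries (adjusted p = 0.0163). Col11a1 had 2.01, 1.26 and 0.555 CPM in adult burn and 4.64, 3.82 and 9.77 CPM in young burn.

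Basement membrane chains differed between the burned groups as well. For Col4a1, adult burn libraries had 327, 318 and 302 CPM and young burn libraries 752, 832 and 833 CPM, a log2 fold change of 1.34 ± 0.16 (adjusted p = 0.000167). For Col4a2, the values were 174, 159.9 and 178 CPM in adult burn and 339, 390.2 and 394 CPM in young burn, and the difference was 1.11 ± 0.15 (adjusted p = 0.000399). Both genes were well separated by age, with close values inside each burned group. Col4a5 differed by 1.66 ± 0.22 (adjusted p = 0.00033), with 10.2, 9.19 and 6.29 CPM in adult burn and 28.0, 26.4 and 26.1 CPM in young burn. Col15a1 had 85.1, 53.5 and 76.5 CPM in adult burn and 173, 79.5 and 150.3 CPM in young burn. Young burn replicate 2 lay inside the range of adult burn, and without it the difference was 1.18 ± 0.18 (adjusted p = 0.000695), beside 0.90 with it (adjusted p = 0.0348).

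Type VI collagen was called for all 4 tested chains between the burned groups. Col6a3 had 139, 109.8 and 110.2 CPM in adult burn and 271, 182 and 283 CPM in young burn, and rose by 1.22 ± 0.15 (adjusted p = 0.000167). Col6a1 had 175, 138 and 143 CPM in adult burn and 266, 209 and 323 CPM in young burn, with a difference of 0.96 ± 0.17 (adjusted p = 0.00166). Col6a2 had 195, 129 and 154 CPM in adult burn and 271, 182 and 304 CPM in young burn. The replicate that stands apart, at 182 CPM, brought Col6a2 into overlap with adult burn, and its difference of 0.85 ± 0.20 (adjusted p = 0.00791) was 0.66 with all 12 libraries (adjusted p = 0.0753).

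Several other chains reached the threshold in the burned mice. Col8a1, a short-chain collagen of vessel walls and the subendothelium, had 15.5, 10.5 and 9.07 CPM in adult burn and 22.5, 8.91 and 27.5 CPM in young burn. Its difference of 1.09 ± 0.22 (adjusted p = 0.0037) was lost with all 12 libraries (0.74, adjusted p = 0.16). The lowest value was that of young burn replicate 2. Col26a1 had 0.836, 1.08 and 0.741 CPM in adult burn and 7.14, 3.27 and 6.31 CPM in young burn, and again had the largest fold change of the family, 2.90 ± 0.37 (adjusted p = 0.000232). Col28a1 was called at 1.92 ± 0.49 (adjusted p = 0.0132), with 1.34, 0.721 and 2.22 CPM in adult burn and 5.53, 8.004 and 5.29 CPM in young burn. Col16a1 had 5.52, 7.75 and 5.37 CPM in adult burn and 14.8, 11.5 and 19.5 CPM in young burn, a difference of 1.47 ± 0.22 (adjusted p = 0.000581).

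Some chains did not pass the test between the burned groups. Col12a1 had 6.85, 3.97 and 4.81 CPM in adult burn and 6.96, 8.55 and 7.33 CPM in young burn, and its 0.45 ± 0.34 was not called (adjusted p = 0.36). Col7a1, the anchoring fibril chain, had 13.5, 12.3 and 18.1 CPM in adult burn and 14.6, 6.003 and 14.0 CPM in young burn, a difference of -0.02 (adjusted p = 0.95). Col23a1, a transmembrane chain, had 2.17, 2.704 and 2.96 CPM in adult burn and 2.68, 2.36 and 2.44 CPM in young burn, a difference of -0.01 (adjusted p = 0.983). Col2a1 was near the limit of detection in adult burn, at 0.669, 0 and 0.370 CPM, against 1.43, 1.27 and 1.22 CPM in young burn (adjusted p = 0.0674). The 3 young burn values of Col12a1 and of Col2a1 lay above the 3 adult burn values, while those of Col7a1 and Col23a1 overlapped them.

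Leaving out 1 library at a time kept 16 of the 24 calls between the burned groups in every fit. Col5a3, Col11a1, Col27a1, Col18a1, Col6a2, Col20a1, Col8a1 and Col28a1 were lost in at least 1 of the 11 fits, each of them without young burn replicate 1 or young burn replicate 3. The fits without young burn replicate 1 or young burn replicate 3 each hold 1 young burn mouse, so that their spread comes from the other groups. Both age comparisons use different mice, and their values stand side by side without a test of their likeness.

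The share of the family held by each class was compared by age. Counts per kilobase of exon were summed over each class, and the fibrillar share of that sum was 52.5% ± 2.01 in adult sham (SD, n = 3) and 71.4% ± 1.66 in young sham (SD, n = 3). It was 49.1% ± 3.82 in adult burn (SD, n = 3) and 65.5% ± 2.44 in young burn (SD, n = 2). Every young value, that of young burn replicate 2 at 63.7% included, lay above every adult value. The basement membrane share was 22.0%, 26.5%, 14.3% and 19.5% on average in adult sham, adult burn, young sham and young burn, without young burn replicate 2. That library had a basement membrane share of 23.7%, above every adult sham value and inside the adult burn range of 23.0% to 28.6%, while the other young burn mice were at 18.2% and 20.8%. The share of the other class was 25.5%, 24.3%, 14.3% and 15.1%. With the longest transcript as length, the fibrillar share was 59.9%, 56.8%, 77.2% and 72.4% in the same order of groups.

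**Figure D3:**
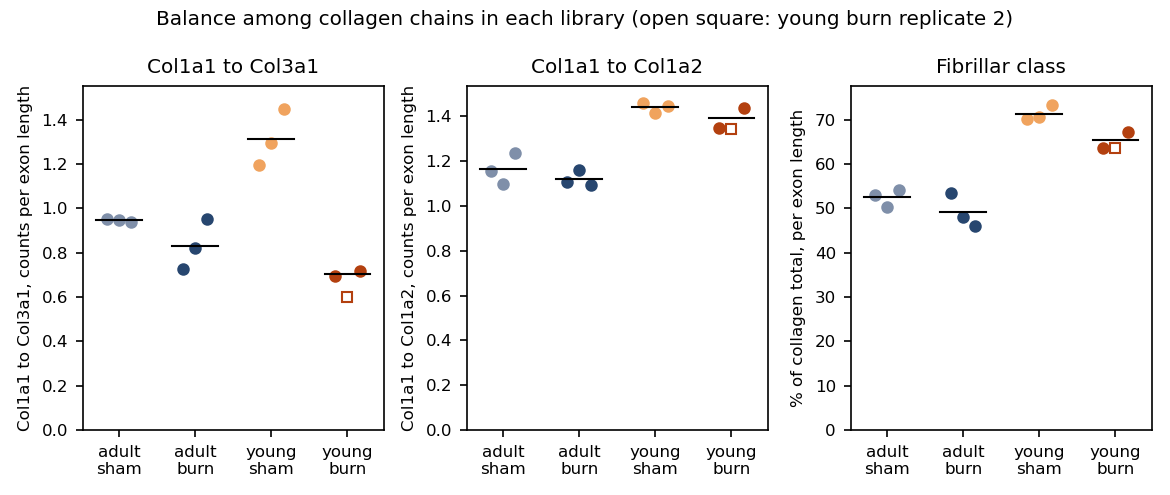
Ratio of Col1a1 to Col3a1, ratio of Col1a1 to Col1a2 (both from counts per kilobase of exon) and fibrillar share of the summed level per kilobase (percent), by group. Circles are single mice, the open square is young burn replicate 2 and the line is the group mean without it. The ratio of Col1a1 to Col3a1 is highest in young sham, at 1.19 to 1.45, and lowest in young burn, at 0.599 to 0.715.

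Chains that assemble together or side by side were compared as ratios of counts per kilobase within each library, so that neither library size nor the amount of collagen enters. The ratio of Col1a1 to Col3a1 ran from 0.938 to 0.954 in adult sham and from 0.724 to 0.949 in adult burn. In young sham it ran from 1.19 to 1.45 (mean 1.31 ± 0.128, SD, n = 3), and in young burn from 0.599 to 0.715 (mean 0.669 ± 0.0617, SD, n = 3). The young burn and young sham ranges did not overlap, and the ratio in young burn was 0.509 times that in young sham. Ratios of all chain pairs, and their tests, are from all 12 libraries. Young burn replicate 2 had the lowest ratio of Col1a1 to Col3a1, 0.599. The log2 difference of young burn from young sham was -0.973 with that library and -0.895 without it. The exact permutation test on the log2 ratio, two-sided over 3 against 3 mice, gave p = 0.1, the smallest p this design allows, and 0.24 after Benjamini-Hochberg adjustment over 24 comparisons of 6 chain pairs. Of the 24 comparisons, 10 had ratios that did not overlap, and none can pass 0.05 in this design.

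Ratios of type I and type IV partner chains are given the same way. The ratio of Col1a1 to Col1a2 was 1.10 to 1.24 in adult sham, 1.10 to 1.16 in adult burn, 1.42 to 1.46 in young sham and 1.34 to 1.44 in young burn. The ratio of Col4a1 to Col4a2 was 1.52 to 1.7001, 1.502 to 1.76, 1.91 to 2.17 and 1.87 to 1.97 in the same groups. In both pairs the young ranges lay above the adult ranges, and burn and sham overlapped at each age. Neither age comparison of either pair passed the exact permutation test (p = 0.1, the smallest possible with 3 against 3, and 0.24 adjusted). The value of a ratio depends on the length used, and its fold between groups does not. With the longest transcript, Col1a1 to Col1a2 was 0.524 to 0.589 in adult sham and 0.675 to 0.695 in young sham, below 1 throughout, and Col1a1 to Col3a1 averaged 0.824 in young sham and 0.420 in young burn. Whether one chain exceeds the other can therefore not be read from these ratios, which also measure no protein chains.

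The response of adult muscle to the burn was read from adult burn against adult sham. None of the 35 collagens was called by edgeR, where 0.909% of genes were called. Its unadjusted p was under 0.05 for 8 of the 35 collagens and for 1731 of all 12651 genes tested. DESeq2 called 1 in the 11 libraries, Col15a1 at -0.59 (adjusted p = 0.0316), and 0 in the 12 libraries. The share of all genes that DESeq2 called is not given here. With all 12 libraries edgeR also called 0 of 34 collagens, where 0.00806% of genes were called. Of the 35 estimates 7 were positive, and the medians were -0.41 for fibrillar, -0.14 for basement membrane and -0.31 for other collagens, the middle one turning positive without adult burn replicate 1 (0.14) or adult sham replicate 3 (0.22). Col15a1 by edgeR was at -0.60 ± 0.16 (adjusted p = 0.103), and its 3 adult burn values, 53.5 to 85.1 CPM, lay below the lowest adult sham value of 86.3 CPM.

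The largest estimates in adult burn against adult sham were those of low-level chains, and none passed. Col11a1 had 2.01, 1.26 and 0.555 CPM in adult burn, all below adult sham, at -1.88 ± 0.48 (adjusted p = 0.0842). Next in size were Col2a1 at -1.53 ± 0.67 (adjusted p = 0.322), the short-chain gene Col8a2 at -1.27 ± 0.41 (adjusted p = 0.179) and Col9a1 at -1.03 ± 0.41 (adjusted p = 0.264). Col11a2 had 4.35, 3.79 and 4.44 CPM in adult burn, at -0.90 ± 0.27 (adjusted p = 0.139), and was called without adult sham replicate 2, at -1.18 (adjusted p = 0.0239). Col1a1 was at -0.48 ± 0.21 (adjusted p = 0.327) and Col1a2 at -0.41 (adjusted p = 0.373). On the positive side, Col4a3, a tissue-restricted type IV chain, had the largest estimate. Its CPM was 2.68, 2.94 and 2.75 in adult sham and 4.35, 6.13 and 4.63 in adult burn, without overlap, at 0.84 ± 0.28 (adjusted p = 0.187). Of the exons of Col4a3, 563 bases (5.65%) are shared with C430014B12Rik on the other strand. Col4a1 and Col4a2 were at 0.19 and 0.16 (adjusted p = 0.607 and 0.679). In all, 5 collagens had every adult burn value below every adult sham value and 1, Col4a3, had them all above, where 9.74% and 10.2% of genes had such orders.

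**Figure D4:**
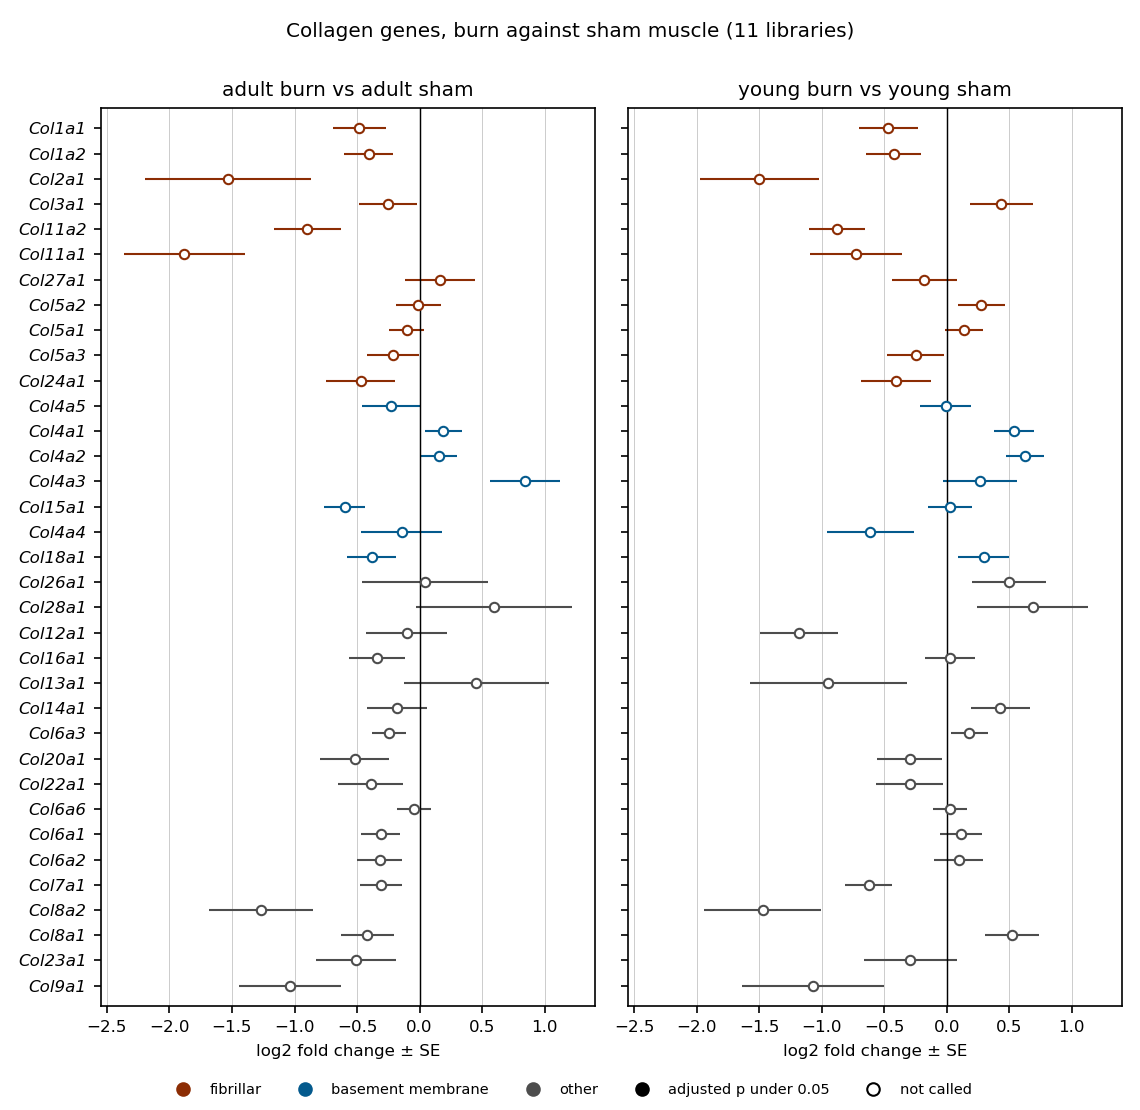
Log2 fold changes of the 35 tested collagens, ordered by class, with adult burn against adult sham in one panel and young burn against young sham in the other. The horizontal axis is log2 fold change, points are estimates from the 11 libraries and bars are standard errors. All points are open, since edgeR called no collagen here at the 0.05 level.

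In young muscle, young burn was compared with young sham. EdgeR called 0 of 35 collagens, where 0.664% of genes were called. Its unadjusted p was under 0.05 for 8 of the 35 collagens and for 2026 of all 12651 genes tested. With all 12 libraries it called 0 of 34, where 0.0645% of genes were called. DESeq2 called 1 in the 11 libraries, Col4a2 at 0.62 (adjusted p = 0.0157), and 5 in the 12 libraries. These were Col4a1 at 0.56 and Col4a2 at 0.66, and on the negative side Col11a2 at -1.13, Col12a1 at -1.08 and Col7a1 at -0.94. The shares of genes above are those of edgeR, and no share of all genes called by DESeq2 stands beside these counts. The class medians by edgeR were -0.40 for fibrillar, 0.27 for basement membrane and 0.03 for other collagens (-0.57, 0.13 and -0.14 with all 12 libraries), and 17 of 35 estimates were positive.

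By edgeR, Col4a2 was at 0.63 ± 0.15 (adjusted p = 0.0733) and Col4a1 at 0.54 ± 0.16 (adjusted p = 0.124) in young burn against young sham. All 3 young burn values of either gene lay above all 3 young sham values. Among the genes with lower estimates, Col11a2 had 11.96, 7.09 and 15.1 CPM in young burn, below every young sham value, at -0.88 ± 0.23 (adjusted p = 0.0847). Col12a1 likewise lay below young sham in each young burn mouse, at -1.18 ± 0.31 (adjusted p = 0.0883). Col7a1 was at -0.63 ± 0.19 (adjusted p = 0.123) and Col2a1 at -1.50 ± 0.48 (adjusted p = 0.139). Without adult sham replicate 2, a library of neither group, Col11a2 at -0.89 (adjusted p = 0.0368) and Col4a2 at 0.61 (adjusted p = 0.0477) were called. Type I and type III chains had estimates of opposite sign, -0.47 ± 0.23 for Col1a1, -0.42 for Col1a2 and 0.44 ± 0.25 for Col3a1, and none passed (adjusted p = 0.346, 0.357 and 0.415).

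In the 11 libraries, 2 young burn mice stand against 3 young sham mice. Of 35 collagens, 7 had every young burn value above every young sham value, where 16.7% of genes did. The reverse order held for 12, where 15.7% of genes had it, and these were Col1a1, Col1a2, Col2a1, Col5a3, Col7a1, Col8a2, Col9a1, Col11a2, Col12a1, Col20a1, Col24a1 and Col4a4. With young burn replicate 2 the orders held for 3 (Col3a1, Col4a1 and Col4a2) and for 11, where 10.4% and 11.2% of genes had them.

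Whether the burn response differed by age was tested as the burn by age interaction, young response minus adult response. EdgeR called 0 of 35 collagens, where 0.0949% of genes were called. Its unadjusted p was under 0.05 for 6 of the 35 collagens and for 1410 of all 12651 genes tested. With all 12 libraries it called 0 of 34, and 0% of genes. DESeq2 called 0 in both sets of libraries. The lowest p of the family was that of Col8a1, at 0.94 ± 0.30 (adjusted p = 0.3). Col3a1 was at 0.69 ± 0.34 (adjusted p = 0.468) and Col12a1 at -1.08 ± 0.45 (adjusted p = 0.405), and neither passed.

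Other genes of the collagen pathway were examined as lists, whose counts stand beside 11.8% of all genes called between the sham groups and 20.7% between the burned groups. The shares called higher were 5.27% and 11.2%. For burn, 0.909% of all genes were called in adults and 0.664% in young mice. With all 12 libraries 3.76% and 10.8% were called in the 2 age comparisons, and 0.00806% and 0.0645% in the 2 burn comparisons. Chain biosynthesis, the hydroxylases, chaperones and export factors, had 23 of 24 genes tested. In young sham against adult sham 4 were higher and 0 lower, and between the burned groups 6 were higher and 1, the export factor Mia2, was lower at -0.74 (adjusted p = 0.0121). Serpinh1, the collagen chaperone HSP47, had 165 ± 28.1 CPM in adult sham and 269 ± 66.3 CPM in young sham (SD, n = 3 each), a log2 fold change of 0.69 ± 0.17 (adjusted p = 0.0175). Plod1, a lysyl hydroxylase, was the 1 gene of the list called in young burn against young sham, at 0.54 ± 0.11 (adjusted p = 0.044), with 61.0 ± 1.03 CPM in young sham (SD, n = 3) and 88.1 ± 8.18 CPM in young burn (SD, n = 2). Creb3l1, a transcription factor for type I collagen genes, had 15.3, 16.4, 32.4 and 17.8 CPM on average in adult sham, adult burn, young sham and young burn, and was called between the sham groups at 1.07 ± 0.18 (adjusted p = 0.00201). In all 12 libraries the list had 2 calls between the sham groups, 4 between the burned groups and 0 for burn at either age.

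Propeptide removal, the proteinases that trim procollagen, had 3 of 6 tested genes higher in young sham than adult sham and 5 of 6 higher in young burn than adult burn. Adamts2, which removes the N-propeptide, differed by 0.80 ± 0.13 (adjusted p = 0.00175) between the sham groups and by 1.20 ± 0.14 (adjusted p = 0.000118) between the burned groups. Bmp1, which removes the C-propeptide, differed by 0.54 ± 0.11 (adjusted p = 0.00844) and 0.69 ± 0.13 (adjusted p = 0.00216). In all 12 libraries 2 and 3 of 6 were called, so that the count between the burned groups fell from 5 to 3 with young burn replicate 2. In young burn against young sham 1 gene of this list was called, Tll1 at 2.41, and in adult burn against adult sham none. Collagen receptors had 0 of 9 called between the sham groups and 4 of 9 higher between the burned groups, among them Ddr2 at 0.52 (adjusted p = 0.0215) and the endocytic receptor Mrc2 at 0.81 (adjusted p = 0.000947). No receptor was called for burn at either age, and with all 12 libraries 0 and 3 of 8 were called by age.

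Proteoglycans that regulate fibril growth had 2 of 8 genes higher between the sham groups and 3 of 8 between the burned groups. Asporin, Aspn, differed by 0.65 ± 0.12 (adjusted p = 0.00301) and 1.35 ± 0.13 (adjusted p = 1.61e-05). Keratocan, Kera, had 10.5, 4.28, 39.1 and 9.47 CPM on average in adult sham, adult burn, young sham and young burn. It was higher in young sham than adult sham by 1.88 ± 0.35 (adjusted p = 0.00366) and fell in young burn against young sham by 2.05 ± 0.40 (adjusted p = 0.0418). Of 12 genes of the TGF-beta axis, the main pathway to collagen transcription, 0 were called between the sham groups, while 2 were higher and 1 lower between the burned groups. Smad3, a signal transducer of this pathway, fell in adult burn against adult sham by 0.83 ± 0.15 (adjusted p = 0.0186), and the receptor Tgfbr2 rose in young burn against young sham by 0.57 ± 0.11 (adjusted p = 0.0418). With all 12 libraries none of the 12 genes was called in any comparison, and the burn calls of Plod1, Tll1 and Kera were lost too.

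Markers of cell types moved with age and burn beside the collagens, and their part in the collagen differences was not tested. Of all genes tested in the 11 libraries, 5.27% were called higher between the sham groups and 11.2% between the burned groups. For burn, 0.909% were called in adults and 0.664% in young mice, in either direction. Summed over 9 fibroblast markers, the range was 3217 to 3952 CPM in adult sham, 3699 to 4573 in adult burn, 2497 to 4245 in young sham and 3681 to 4627 in young burn. Of these 9 genes 1, Mfap5, was higher in young sham than adult sham, and 6 were higher in young burn than adult burn. Summed over 8 tendon markers, the ranges were 94.6 to 244 CPM, 84.4 to 159 CPM, 227 to 272 CPM and 103 to 158 CPM in the same order. Between the sham groups 3 of these were higher in the young mice (Cilp2, Tnmd and Wif1), and 3 fell in young burn against young sham (Cilp2, Chad and Wif1). The other 5 tendon markers were not called in young burn against young sham.

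Endothelial markers summed to 855 to 1123 CPM, 1073 to 1267 CPM, 1136 to 1702 CPM and 1532 to 1731 CPM, and 2 and 5 of 8 were higher in the young mice between sham and between burned groups. In adult burn against adult sham 1 of them, Kdr, was lower. Pericyte and smooth muscle markers summed to 859 to 908 CPM, 719 to 740 CPM, 936 to 1100 CPM and 928 to 1233 CPM, with 1 higher and 1 lower of 6 between sham groups and 4 higher between burned groups. Schwann cell markers had 3 of 4 higher in both age comparisons. Macrophage markers, at 148 to 175 CPM in adult sham and 272 to 432 CPM in young burn, had 4 of 6 higher between the burned groups and 2 higher in young burn against young sham (C1qa and C1qb). Satellite cell and regeneration markers had 2 higher and 1 lower of 6 between the sham groups and 4 higher between the burned groups. Muscle fibre markers had 2 higher and 1 lower of 8, and then 1 lower, in these comparisons, and adipocyte markers had 0 of 5 called in any. None of the 6 chondrocyte and osteoblast markers passed the filter, and they summed to at most 1.46 CPM. Of the keratinocyte markers, Krt5, Krt14 and Krt1 were at 0 in all groups, and Krt10 was higher in young sham than adult sham. Over all 12 libraries no marker of these lists was called for burn at either age, and no Schwann cell marker was called by age. Between the sham groups 0 fibroblast, 2 tendon and 1 endothelial markers were then called higher. Between the burned groups the higher calls fell to 4 fibroblast, 3 endothelial, 2 pericyte and smooth muscle and 3 satellite cell and regeneration markers. Macrophage markers stayed at 4 there. Of all genes tested in the 12 libraries, 1.92% were called higher between the sham groups and 5.98% between the burned groups. For burn, 0.00806% were called in adults and 0.0645% in young mice, in either direction.

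The miR-29 family was measured in the small RNA libraries, and it is a known repressor of collagen mRNAs. Its 3 mature forms share one seed, bases 2 to 8, shown in capitals because it defines the sites searched for below. The sequences are from RefSeq on GRCm38.p6. The genes of miR-29a and one copy of miR-29b lie on chromosome 6, at chr6:31062673-31062694 and chr6:31063025-31063047, and those of the other copy of miR-29b and of miR-29c lie on chromosome 1, at chr1:195037091-195037113 and chr1:195037600-195037621.
mmu-miR-29a-3p: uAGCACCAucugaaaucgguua
mmu-miR-29b-3p: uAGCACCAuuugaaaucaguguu
mmu-miR-29c-3p: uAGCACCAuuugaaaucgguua

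The entry mir-29a had 3602, 3734 and 3239 CPM in adult sham and 788, 905 and 759 CPM in young sham. After burn it had 3137, 3497 and 3334 CPM in adults, and 767, 852 and 798 CPM in young mice. All 6 young libraries lay below all 6 adult libraries, and the burn and sham values overlapped at each age. EdgeR over 299 entries in the 12 small RNA libraries gave a log2 fold change of -2.11 ± 0.11 for young sham against adult sham (adjusted p = 1.66e-10), and -2.04 ± 0.11 between the burned groups (adjusted p = 2.64e-10). The 4 miR-29 entries, 2 of which are copies of miR-29b, were all called lower in both age comparisons, where 56.2% and 55.2% of entries were called and 25.4% were called lower in each. The copies of miR-29b can share reads, since their mature sequence is the same.

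Mean levels of mir-29c were 165, 150, 53.0 and 52.5 CPM in adult sham, adult burn, young sham and young burn. The mir-29b copies ran from 50.5 to 85.8 CPM in adult libraries and from 14.5 to 20.7 CPM in young libraries. No miR-29 entry was called after burn at either age (adjusted p from 0.712 to 0.767 in adults and from 0.969 to 0.980 in young mice). In both burn comparisons 0% of entries were called, while 23 entries in adults and 37 in young mice had an unadjusted p under 0.05. Scaled by library size alone, the 4 log2 fold changes lay between -1.59 and -1.12 for young sham against adult sham and between -1.70 and -1.19 between the burned groups, and all stayed called. That scaling moved the median of all entries to 0.52 and 0.30, and the share of higher calls from 54.8% to 88.8% and from 53.9% to 80.1%.

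**Figure D5:**
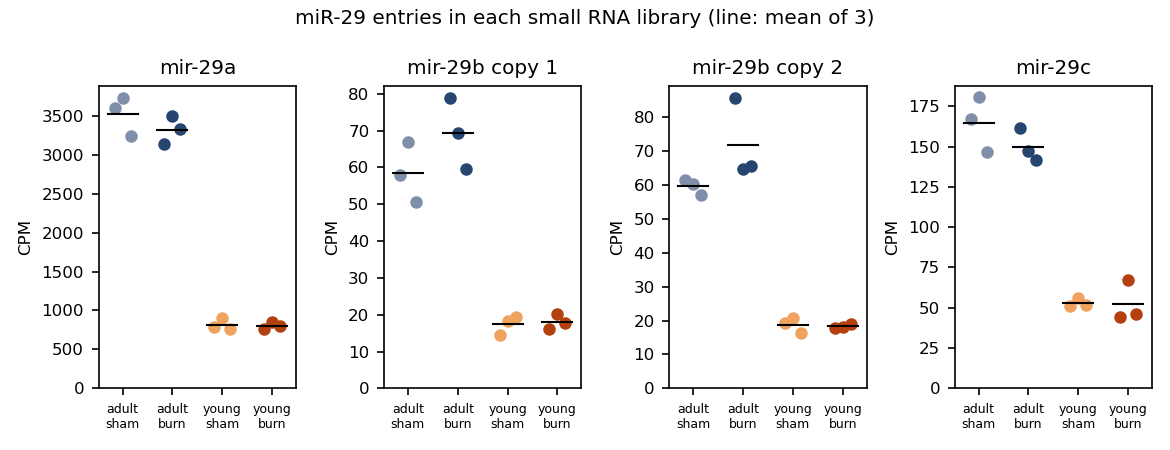
Normalized CPM of the 4 miR-29 entries in the 12 small RNA libraries, by group. Circles are single mice and the line is the mean of 3 mice. Adult sham and adult burn overlap in each panel except that of mir-29b copy 2, at 57.1 to 61.6 and 64.6 to 85.8 CPM. EdgeR did not call that difference. All young libraries lie below all adult libraries in each panel.

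Sites for this seed, TGGTGCT on the sense strand of the mRNA, were counted in the annotated 3' untranslated region of each gene. At least 1 such match was found in 25 of the 44 collagens (56.8%), and in 16.2% of 11845 tested protein-coding genes. By class 9 of 11 fibrillar, 7 of 8 basement membrane and 9 of 25 other collagens had one. Per kilobase the collagens had 0.693 matches and the tested genes 0.115, and in the first 500 bases of regions at least that long 30.8% of collagens and 5.54% of tested genes had one. Col26a1, Col4a3 and Col5a1 had 4 matches each, and Col4a5 and Col5a3 had 3 each. No match was found in this region of Col1a2, Col6a1, Col11a2, Col12a1, Col14a1 or Col28a1. The windows below show the first match in the most abundant chains on GRCm38, with the match in capitals, at chr11:94952528-94952553 for Col1a1, chr1:45348972-45348997 for Col3a1, chr8:11199753-11199778 for Col4a1 on the minus strand and chr8:11448349-11448374 for Col4a2. They begin their match 919, 235, 33 and 43 bases after the stop codon.
Col1a1: aaggaatttcTGGTGCTatagaagct
Col3a1: aatgtctcaaTGGTGCTataataaat
Col4a1: cgtcacaacaTGGTGCTactcccccc
Col4a2: aaggccacgtTGGTGCTtatccttct

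Collagens with and without a match were both higher in young muscle. The median log2 fold change of the 23 tested collagens with a match was 0.92 between the sham groups and 1.18 between the burned groups, and that of the 12 without one was 0.79 and 0.89. Type I collagen has a match in Col1a1 and none in Col1a2, and both chains rose. Of the other protein-coding genes, 1901 had a match, with medians of -0.01 and 0.04, and 5.79% and 12.7% of them were called higher, while 4.77% and 10.8% of those without a match were. A match is a description of these letters and was not tested as a binding site. Only TGGTGCT was searched for, so genes without a match may hold sites of another kind. The part of miR-29 in the collagen differences was not tested.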

How the data were processed

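The authors sequenced poly-A RNA and small RNA libraries of the same mice (paired reads of 75 bases for mRNA), aligned mRNA reads to GRCm38 with STAR 2.7.5c and deposited raw counts per Gencode M25 gene. Small RNA reads were trimmed with mirDeep2, aligned with STAR and counted with featureCounts 2.0.1, and the authors deposited these as raw counts too. Demultiplexing used bcl2fastq 2.20. The sources used here do not give the strand counted or the treatment of small RNA reads with several positions, so antisense and overlapping genes may share reads. Groups were taken from the sample labels.

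Counts were analysed in R 4.3.3 with edgeR 4.0.16 (TMM, filterByExpr at 10 counts and a total of 15, one quasi-likelihood model for the 4 groups), and alternatives with DESeq2 1.42.0. All tests were two-sided, and p-values were adjusted by Benjamini-Hochberg across 12651 genes (11 libraries), 12408 genes (12 libraries) or 299 small RNA entries, and standard errors were derived from the F statistic. Positions and exon lengths came from Gencode M21 on GRCm38, which matched 55141 of 55401 gene identifiers. Small RNA libraries held 1704531 to 3149396 counts. Counting limits apply to collagens of a few counts per library, whose values rest on little depth. The RNA quality report of the study lists no integrity number for any sample. Its ratio of large to small ribosomal RNA was no higher in any young sham sample than in any adult sham sample. RNA quality was not entered in the models, and its part in the differences was not tested. No pair of replicates was within sampling noise of each other (chi-square per degree of freedom at least 3.34).

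Members whose values are given by library were chosen by rule. In the fibrillar, basement membrane, beaded filament and FACIT groups they were the 3 tested members with the highest level per kilobase. The leading member of each remaining subclass was added, with any member called by edgeR for burn or the interaction. So were the 8 largest called fold changes of either age comparison. Values of Col14a1 and Col22a1 are given for the sham groups only. Those of Col7a1, Col8a1 and Col23a1 are given for the burned groups only. Other genes named in passing, some pathway genes included, were chosen after their values were seen. The members and lists were chosen with earlier results of these data known. Scripts were tested on simulated data, and figures were drawn with matplotlib 3.10.9. Alternatives were RLE normalization, no filter on low counts, DESeq2, a replicate block, only the groups compared, another length and leaving out each library. Library size alone and DESeq2 on all 12 libraries were added after the data were seen.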

Additional observations from a re-analysis of the deposited data

How the results depend on the processing

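No fold change called in either age comparison turned its direction under any alternative run. Of the class medians for burn and the interaction, 3 changed sign. That of basement membrane collagens in adult burn against adult sham was -0.14, and 0.14 and 0.22 without adult burn replicate 1 and adult sham replicate 3. That of other collagens in young burn against young sham was 0.03, and -0.18 to -0.02 with a replicate block, with all 12 libraries by either tool, or without young burn replicate 3, young sham replicate 1 or young sham replicate 3. That of fibrillar collagens in the interaction was 0.03, and -0.15 to -0.03 with a replicate block, with all 12 libraries by either tool, or without adult burn replicate 2 or young burn replicate 3. For young sham against adult sham the number of collagens called ran from 15 to 22 when 1 library was left out, and was 22 with RLE normalization, 25 without the filter, 22 with DESeq2, 18 with library size alone, 21 with only the groups compared and 17 with DESeq2 on all 12 libraries. For young burn against adult burn it ran from 17 to 25 when 1 library was left out. Adult burn against adult sham had 0 calls by edgeR, 6 without the filter on low counts (Col1a1, Col1a2, Col11a1, Col11a2, Col15a1 and Col8a2), 1 with DESeq2 (Col15a1) and 0 to 1 with 1 library left out (Col11a2 without adult sham replicate 2). Young burn against young sham had 0 calls, 9 without the filter (Col1a1, Col1a2, Col3a1, Col11a2, Col4a1, Col4a2, Col12a1, Col8a2 and Col7a1), 1 with DESeq2 (Col4a2), 2 with library size alone (Col4a1 and Col4a2), 5 with DESeq2 on all 12 libraries and 0 to 2 with 1 library left out (Col11a2 and Col4a2 without adult sham replicate 2). The interaction had 0 calls and 2 without the filter (Col3a1 and Col8a1). Fits that leave out young burn replicate 1 or young burn replicate 3 hold 1 young burn mouse. Why these counts moved was not tested. No share of all genes called is given for DESeq2, RLE normalization, the replicate block, only the groups compared, the leave-outs or without the filter. Collagen counts from those settings can therefore not be set against all genes. With library size alone, 1789 of all genes were called in young sham against adult sham and 353 in young burn against young sham. The main fit called 1488 and 84.

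Library size alone, added after the data were seen, moved the median of all genes to -0.13 in young sham against adult sham and to 0.16 in young burn against young sham, and the share of higher calls over all genes from 44.8% to 19.7% and from 69.0% to 95.8%. The fibrillar median between the sham groups was then 1.14. With a replicate block 22, 0, 0, 23 and 0 collagens were called in young sham against adult sham, both burn comparisons, young burn against adult burn and the interaction. Libraries of the same number did not deviate together, with r from -0.17 to 0.14 over 15 pairs against -0.19 to 0.21 over 30 pairs of other numbers, so no pairing was assumed.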
